A study of Xenopus laevis with 12 samples.

Results

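The genes of the proteasome, the protease that degrades ubiquitin-tagged proteins, were followed across 12 arrays of Xenopus laevis animal caps. They were taken as every gene symbol on the array that starts with psm, a letter from a to g and a digit, and each symbol was read from its probe set with the highest mean. The rule gave 63 symbols among the 11303 symbols of the array. These symbols have 76 probe sets among the 32475 that were tested. They stand for 45 distinct genes, with 36 symbols for the .L and 27 for the .S homeolog, the copies of a gene that this allotetraploid frog kept on its long and short chromosomes. Of the 63, 24 were core subunits (psma, psmb), 27 were regulatory (psmc, psmd) and 10 were activators, the inhibitor or core chaperones (psme, psmf, psmg). The other 2, psmc3ip.L and psme3ip1.S, are caught by the letters of their names and encode interacting proteins, not subunits.

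The core of the proteasome is a barrel. Its outer rings are built of alpha subunits, which gate the entry, and its inner rings of beta subunits, some of which cut the substrate. A regulatory particle caps the barrel: its base holds ATPases that unfold the substrate and open the gate, and its lid holds the enzyme that takes the ubiquitin chain off. Dedicated chaperones assemble both parts, and alternative activators can sit on the barrel in place of the regulatory particle.

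Animal caps are explants of blastula ectoderm, a tissue that turns into epidermis when cultured without added signals. The embryos received mRNA in the animal pole at the 2-cell stage, caps were explanted at stage 9, and total RNA was taken at stage 15. The 4 groups of 3 arrays differ in the mRNA named in the labels: lacZ as control, kctd15, wnt3a with chordin (wnt3a+chordin), and these 3 mRNAs without lacZ (wnt3a+chordin+kctd15). Wnt3a is a Wnt ligand, chordin binds and blocks BMP ligands, and Kctd15 is a BTB-domain protein known to restrict neural crest. The sources used here give no mRNA amounts and no number of caps per sample. They also do not say whether the replicates are separate clutches, so p-values measure only the spread between these samples, which may be technical.

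Array medians lay between 7.17 and 7.28 on the deposited log2 scale, and arrays of 1 group correlated at 0.971 to 0.986 (Pearson's r across probe sets). With lacZ the probe set of wnt3a.S measured 5.90 ± 0.63 (SD, n = 3), and with wnt3a+chordin 12.76 ± 0.26. That of chrd.1.S, chordin, was as high in replicate 3 of lacZ (9.37) and of kctd15 (9.08) as in arrays with chordin mRNA. The probe set of kctd15.L went against the labels. It was at 4.79 ± 1.43 in the arrays labelled kctd15 and at 10.96 ± 0.26 with lacZ, and at 5.16 ± 1.63 with all 3 mRNAs and 10.66 ± 0.40 with wnt3a+chordin, so each direction given below for kctd15 rests on that label alone. The mean over 19 muscle probe sets was highest in replicate 2 of wnt3a+chordin+kctd15 (7.93) and in replicate 3 of lacZ (7.32). Values below are log2 expression of 1 probe set or differences of it between groups, tested with limma over all 32475 probe sets. Called means a Benjamini-Hochberg adjusted p under 0.05. Members named for the largest differences were picked from called ones whose groups did not overlap. For them the lack of overlap adds no support.

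Proteasome genes were higher in caps with wnt3a and chordin. Against lacZ, 35 of the 63 were called higher and 2 lower, where 24.2% of all probe sets were called higher and 17.1% lower. The members' median difference was 0.43, or 1.35-fold, against 0.11 over all probe sets. Among the 16237 probe sets brighter than the median, to which 56 of the 63 belong, 35.8% were called higher and the median was 0.19. Shares of these brighter probe sets, here and below, come from a separate fit and adjustment of those probe sets alone. In RNA from whole caps, fewer cells of a type and less RNA per cell cannot be told apart.

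The same caps differed in cell type markers. Of 11 ionocyte and multiciliated cell probe sets 10 were called lower with wnt3a+chordin, and their mean per array went from 10.67 to 10.80 with lacZ down to 4.96 to 5.16. Of 13 epidermal probe sets 8 were called lower and 1 higher, while 8 of 8 pan-neural and 9 of 11 neural crest probe sets were called higher. The part of these markers in the proteasome values was not tested. The marker and partner lists, like the members, were chosen with earlier results of these data known.

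Core subunits had a larger median difference than regulatory ones. Against lacZ, 18 of 24 core members were called higher (75%) with a median of 0.62, and 12 of 27 regulatory members (44.4%) with a median of 0.21. None of either was called lower. Between arrays of the same replicate number the median difference was 0.67, 0.47 and 0.56 for the core and 0.28, 0.25 and 0.33 for the regulatory members, so the core value was the larger in each of the 3. No test was made of this gap, because the members were chosen with results known. Without wnt3a+chordin replicate 3 the regulatory median was 0.32. It was 0.34 for the 23 regulatory members that are not assembly chaperones, 11 of which were called higher.

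**Figure D1:**
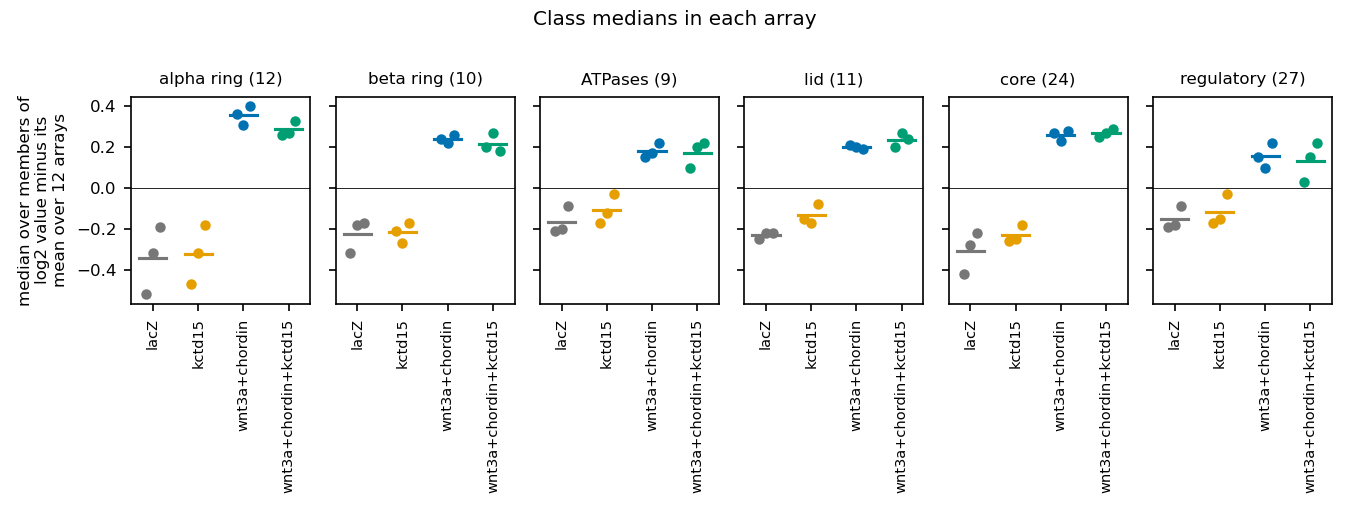
Median over the members of each class of the log2 value minus that member's mean over 12 arrays (y axis), in each of the 3 arrays of the 4 groups (points), with the mean of the 3 (bar); the number of members is in brackets. All arrays with wnt3a and chordin lie above all others in every class shown, with core medians of 0.23 to 0.29 against -0.42 to -0.18 and regulatory medians of 0.03 to 0.22 against -0.19 to -0.03.

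The comparison was repeated by groups that share no array with the first, and the markers moved there too. With wnt3a and chordin in the arrays labelled kctd15, 10 of 11 ionocyte and multiciliated, 5 of 13 epidermal and 3 of 5 endoderm probe sets were called lower, and 8 of 8 pan-neural and 7 of 11 neural crest ones higher; their part in the proteasome values was not tested. Wnt3a+chordin+kctd15 minus kctd15 gave 31 members higher and 2 lower, where 23.6% of all probe sets were called higher and 18.5% lower, and a median of 0.32 against 0.03 over all probe sets. Of the 35 members called higher in the first comparison 85.7% were called higher here too, and these 30 made up 96.8% of the 31. Over all probe sets the shares were 77.9% and 79.9%. The members' differences in both comparisons correlated at Pearson's r of 0.90 over 63 members, and those of all probe sets at 0.89, as a description, since probe sets share arrays and are not replicates. Core members were again ahead, with 17 of 24 called higher (70.8%, median 0.50) against 8 of 27 regulatory members (29.6%, median 0.26). Among the 16237 probe sets brighter than the median, 35.2% were called higher and 24% lower here, with a median of 0.16. The regulatory count was 15 with the replicate number as a block, and 4 without kctd15 replicate 2 or without wnt3a+chordin+kctd15 replicate 2. Without all arrays numbered 2, 15 members were called in the first comparison in place of 37, and 13 in the second in place of 33.

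**Figure D2:**
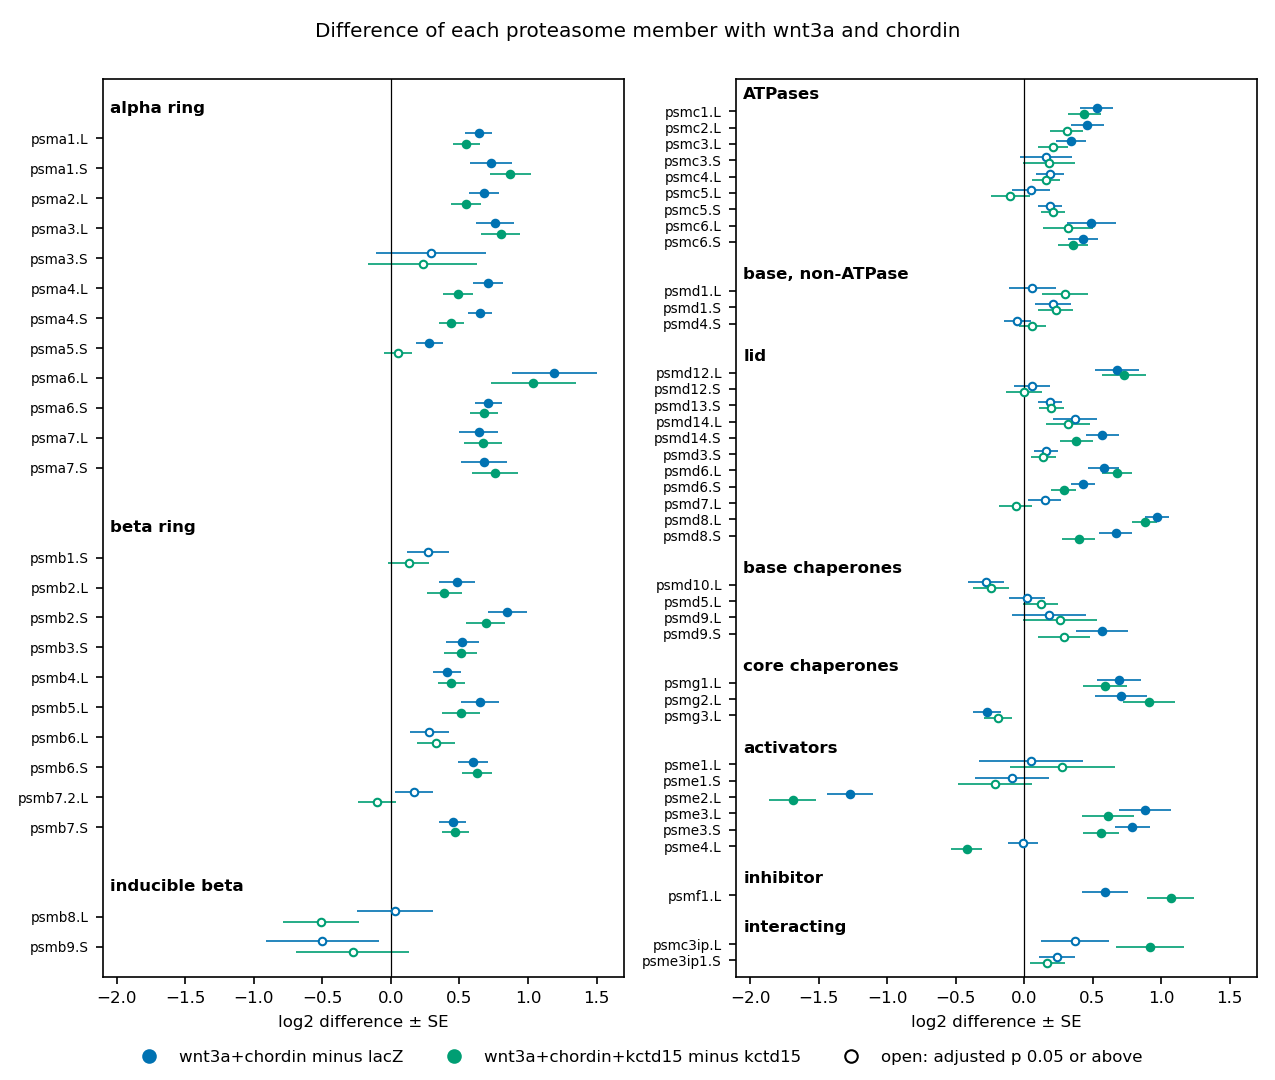
Log2 difference ± SE (x axis) of each of the 63 members, by class (rows), for wnt3a+chordin minus lacZ (blue) and wnt3a+chordin+kctd15 minus kctd15 (green), n = 3 arrays per group; filled points passed adjusted p under 0.05. Of 12 alpha subunits 11 are filled in blue, while psme2.L stands alone at the far left with -1.27 and -1.69.

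The alpha ring, which builds the gate of the barrel, had the highest median of the core and regulatory classes. Of 12 alpha symbols 11 were called higher with wnt3a+chordin against lacZ (91.7%, and 24.2% of all probe sets), with a median of 0.68. In wnt3a+chordin+kctd15 minus kctd15 the count was 10 of 12 (83.3%, and 23.6% of all probe sets), with a median of 0.61. The largest alpha difference was that of psma6.L (probe set Xl2.49801.1.S1_s_at). It measured 9.43, 9.27 and 10.09 in the lacZ arrays and 10.69, 10.44 and 11.23 with wnt3a+chordin. In the arrays labelled kctd15 it measured 9.61, 9.36 and 10.30 without and 10.86, 10.47 and 11.08 with wnt3a and chordin. Every array with wnt3a and chordin was above every array without them, and replicate 3 was the highest within each group. The differences were 1.19 (SE 0.31, limma adjusted p = 0.00985), or 2.28-fold, and 1.04 (adjusted p = 0.0187). The second was lost without kctd15 replicate 1 (adjusted p = 0.0607) or 2 (0.0727), or without wnt3a+chordin+kctd15 replicate 1 (0.0518) or 3 (0.0658).

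Its homeolog psma6.S was at 11.07, 11.24 and 11.15 with lacZ and at 11.92, 11.79 and 11.88 with wnt3a+chordin, 0.71 higher (SE 0.10, limma adjusted p = 0.000272). psma3.L was at 12.05, 12.14 and 12.46 against 12.89, 12.96 and 13.08, 0.76 higher (adjusted p = 0.0013). psma1.S was at 10.25, 10.41 and 10.69 against 11.26, 11.03 and 11.24, 0.73 higher (adjusted p = 0.00285). None of these 3 subunits had overlapping groups, which the rule for naming them required. Of the rest, psma1.L, psma2.L, psma4.L, psma4.S, psma7.L and psma7.S were called higher by 0.64 to 0.71. psma5.S was higher by 0.28 against lacZ (adjusted p = 0.0442) and showed 0.05 in wnt3a+chordin+kctd15 minus kctd15 (adjusted p = 0.726). Its call was lost without any 1 array other than lacZ replicate 2 (adjusted p from 0.0501 to 0.143). The 1 alpha symbol not called was psma3.S, at 9.58, 8.22 and 8.86 with lacZ and 9.40, 8.60 and 9.52 with wnt3a+chordin. Its arrays spread by over 1 log2 unit within lacZ, and the difference of 0.29 had an SE of 0.40.

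The beta ring carries the cutting sites: psmb5, psmb6 and psmb7 are the catalytic subunits, and the other members of the ring are structural. Of 10 constitutive beta symbols 7 were called higher in both comparisons (70%), with medians of 0.47 and 0.46. Of all probe sets 24.2% and 23.6% were called higher. psmb2.S, a structural subunit, was at 10.20, 10.37 and 10.11 with lacZ, 10.50, 10.30 and 10.13 with kctd15, 11.24, 11.07 and 10.93 with wnt3a+chordin and 11.16, 10.98 and 10.84 with all 3 mRNAs. No array with wnt3a and chordin overlapped one without, and the difference was 0.85 (SE 0.14, limma adjusted p = 0.00063), or 1.80-fold, and 0.69 (adjusted p = 0.00237). All 3 catalytic subunits had a symbol called higher: psmb5.L by 0.65, psmb6.S by 0.60 and psmb7.S by 0.45. Not called against lacZ were psmb1.S (0.27), psmb6.L (0.28) and psmb7.2.L (0.17). The probe set of psmb7.2.L was dim, with a mean of 3.18 where the lowest values of the arrays were 2.38 to 2.65. With the replicate number as a block, psmb1.S (limma adjusted p = 0.0125) and psmb6.L (0.0169) were called too, and psmb6.L also in wnt3a+chordin+kctd15 minus kctd15 (0.00765). The call of psmb2.L there (0.39, adjusted p = 0.0321) was lost without kctd15 replicate 1 (0.126) or 2 (0.0556), or wnt3a+chordin+kctd15 replicate 2 (0.109) or 3 (0.0806).

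The inducible subunits psmb8 and psmb9 replace constitutive catalytic subunits in the immunoproteasome, the form made under interferon in vertebrates. psmb8.L was at 6.44, 6.99 and 6.46 with lacZ and 6.36, 7.00 and 6.62 with wnt3a+chordin, so the groups overlapped, with a difference of 0.03 (limma adjusted p = 0.949). Under the kctd15 label its difference with wnt3a and chordin was -0.51 (adjusted p = 0.178), and adjusted p was 0.00167 with the replicate number as a block. psmb9.S was at 7.33, 5.81 and 5.44 with lacZ and 5.74, 5.83 and 5.51 with wnt3a+chordin, and only replicate 1 of lacZ stood away from the others. Its difference of -0.50 had an SE of 0.41 (adjusted p = 0.378). Both probe sets were rather dim, with means of 6.68 (psmb8.L) and 5.88 (psmb9.S) where array medians were 7.17 to 7.28. Without these 2 and the dim psmb7.2.L, 18 of 21 core members were called higher, with a median of 0.64.

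**Figure D3:**
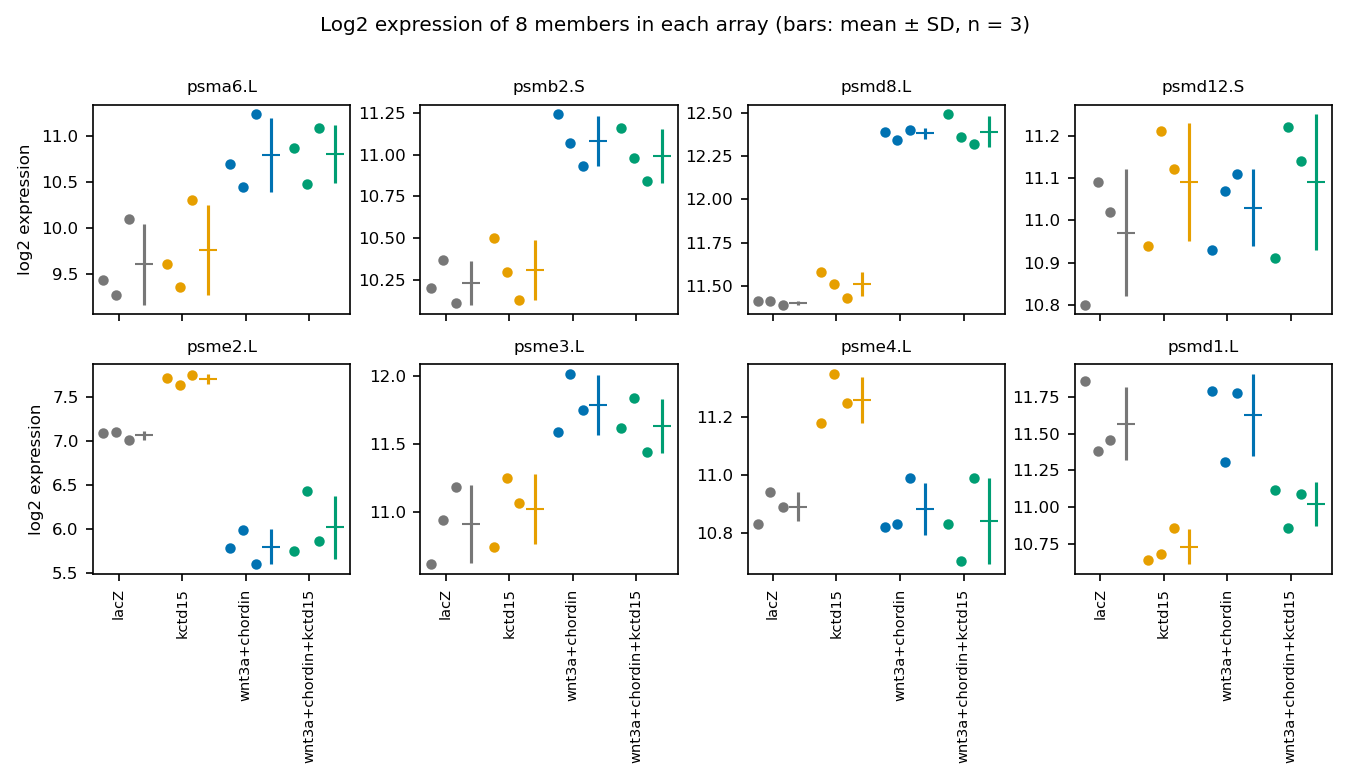
Log2 expression (y axis, a scale of its own in each panel) of 8 members in the 3 arrays of each group (points), with mean ± SD beside them. psma6.L, psmb2.S, psmd8.L and psme3.L are higher in all arrays with wnt3a and chordin, psme2.L is lower in them, psmd12.S overlaps throughout, and psmd1.L is lower in the 6 arrays labelled kctd15.

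Of the 6 ATPases of the base, which pull the substrate into the barrel, 9 symbols were measured. With wnt3a+chordin against lacZ 5 of 9 were called higher (55.6%), with a median of 0.34. In wnt3a+chordin+kctd15 minus kctd15 the count was 2 of 9 (22.2%), with a median of 0.21. Of all probe sets 24.2% and 23.6% were called higher, and of the brighter ones 35.8% and 35.2%. The second ATPase share was thus no larger than these. psmc1.L was the largest, at 10.68, 10.81 and 10.87 with lacZ and 11.25, 11.33 and 11.36 with wnt3a+chordin, a difference of 0.53 without overlap (SE 0.12, limma adjusted p = 0.00372). psmc6.L and psmc6.S were higher by 0.49 (adjusted p = 0.0443) and 0.43 (adjusted p = 0.00832). The call of psmc6.L was lost without lacZ replicate 1 (adjusted p = 0.164) or 2 (0.0701), wnt3a+chordin replicate 2 (0.130) or 3 (0.124), kctd15 replicate 2 (0.0534) or 3 (0.0561), or wnt3a+chordin+kctd15 replicate 3 (0.0567). psmc2.L (0.46) and psmc3.L (0.34) were also called. The call of psmc3.L was lost without any 1 lacZ array or wnt3a+chordin replicate 1 or 3 (adjusted p from 0.0552 to 0.0989). In wnt3a+chordin+kctd15 minus kctd15 the calls were psmc1.L (0.44) and psmc6.S (0.36, adjusted p = 0.0190). With only the arrays compared neither was called (0.0517 and 0.0785). The lowest-mean probe set of psmc1.L (mean 4.45) was not called either (0.11, adjusted p = 0.566). The call of psmc6.S was lost without kctd15 replicate 2 (0.0695) or wnt3a+chordin+kctd15 replicate 2 (0.0682) or 3 (0.0628). With the replicate block psmc2.L (0.0067), psmc5.S (0.0478) and psmc6.L (0.00763) were called there too. Not called were psmc3.S (0.16), psmc4.L (0.19), psmc5.L (0.05) and psmc5.S (0.19).

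Of the base subunits without ATPase activity, the 3 symbols of the scaffold psmd1 and the ubiquitin receptor psmd4 gave no call with wnt3a and chordin. The other scaffold, psmd2, was read only by a probe set shared by its homeologs, which the rule left out and which was called higher against lacZ (0.43, limma adjusted p = 0.0129). psmd4.S was at 10.99, 11.14 and 11.22 with lacZ and 11.12, 11.01 and 11.06 with wnt3a+chordin, and its 3 probe sets gave differences of -0.07 to -0.05. psmd1.L and psmd1.S showed 0.06 (limma adjusted p = 0.809) and 0.21 (adjusted p = 0.241). With the replicate block psmd1.S was called higher with wnt3a+chordin against lacZ (adjusted p = 0.0398) and in wnt3a+chordin+kctd15 minus kctd15 (0.0253).

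The lid was divided within itself. Of 11 lid symbols 6 were called higher in each comparison (54.5%), with medians of 0.43 and 0.32. Of all probe sets 24.2% and 23.6% were called higher, and of the brighter ones 35.8% and 35.2%. psmd8.L, a small lid subunit, had the smallest adjusted p of all members. It was at 11.415, 11.406 and 11.394 with lacZ, 11.576, 11.514 and 11.431 with kctd15, 12.389, 12.342 and 12.399 with wnt3a+chordin and 12.486, 12.357 and 12.325 with all 3 mRNAs. Arrays with and without wnt3a and chordin were far apart against an SD of 0.01 to 0.09 within groups. The differences were 0.97 (SE 0.09, limma adjusted p = 1.54e-05), or 1.96-fold, and 0.88 (adjusted p = 3.01e-05), and the other probe set of this symbol gave 1.45.

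psmd14, the enzyme that removes the ubiquitin chain, was higher by 0.57 for the .S homeolog (limma adjusted p = 0.00373) and showed 0.37 for the .L homeolog (adjusted p = 0.0803). Its structural partner psmd7.L showed 0.15 (adjusted p = 0.335). psmd6.L, psmd6.S, psmd8.S and psmd12.L were higher by 0.58, 0.43, 0.67 and 0.68. The lid symbols psmd3.S (0.16), psmd13.S (0.19) and psmd12.S (0.06) were not called. With the replicate block psmd14.L was called against lacZ (adjusted p = 0.0218) and in wnt3a+chordin+kctd15 minus kctd15 (0.0435), and psmd13.S in the latter (0.0439). There the call of psmd6.S was lost without kctd15 replicate 1 or 2 or wnt3a+chordin+kctd15 replicate 1 or 2 (adjusted p from 0.0514 to 0.0935). That of psmd8.S was lost without kctd15 replicate 2 or 3 or wnt3a+chordin+kctd15 replicate 2 (0.0559 to 0.0728), and that of psmd14.S without kctd15 replicate 1 or 2 or wnt3a+chordin+kctd15 replicate 2 or 3 (0.0718 to 0.110).

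Homeologs gave a view of copies that encode nearly the same protein. Both were measured in 18 pairs: both were called higher in 9, 1 in 6 and neither in 3, and both differences were positive in 17. The median absolute difference between homeologs was 0.165 log2 units. The widest pair was psmd12, a lid subunit. Its .L homeolog was at 9.88, 10.27 and 10.32 with lacZ and 10.79, 10.84 and 10.89 with wnt3a+chordin, 0.68 higher (limma adjusted p = 0.00493). Its .S homeolog was at 10.80, 11.09 and 11.02 against 10.93, 11.07 and 11.11, with overlapping groups and a difference of 0.06 (adjusted p = 0.737). In wnt3a+chordin+kctd15 minus kctd15 the same pair showed 0.73 and 0.00. Next came psma6 (1.19 and 0.71) and psma3 (0.76 and 0.29). The gap between homeologs was not tested, and probe sets can differ in how well they report a change. Homeologs may also cross-hybridise, so a pair that agrees may in part be 1 signal read by both probe sets. Pairs of other genes were not counted, and 24.2% of all single probe sets were called higher in this comparison.

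**Figure D4:**
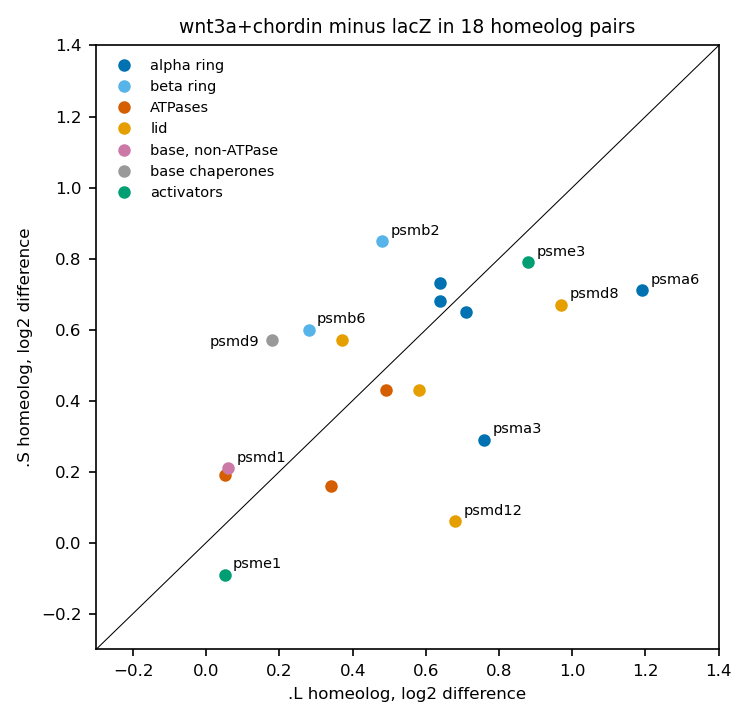
Log2 difference wnt3a+chordin minus lacZ of the .L homeolog (x axis) against the .S homeolog (y axis) for 18 pairs, coloured by class, with the line of equality. Most pairs lie near the line, and psmd12 lies farthest from it, at 0.68 and 0.06.

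Of the 3 chaperones of the core 2 were called higher and 1 lower with wnt3a+chordin against lacZ. Of all probe sets 24.2% were called higher and 17.1% lower. psmg1 and psmg2 form the dimer that starts the alpha ring. psmg1.L was at 10.96, 10.71 and 10.75 with lacZ and 11.70, 11.41 and 11.38 with wnt3a+chordin, 0.69 higher without overlap (limma adjusted p = 0.00508). psmg2.L was at 10.16, 9.94 and 9.83 against 10.94, 10.60 and 10.51, 0.71 higher without overlap (adjusted p = 0.0129), and its call was lost without wnt3a+chordin replicate 1 (adjusted p = 0.0523) or without the 2 arrays with the highest muscle mean (0.0576). psmg3.L, a later chaperone of the same ring, was at 9.54, 9.66 and 9.42 against 9.24, 9.28 and 9.28, lower without overlap (difference -0.27, adjusted p = 0.0489). That call was lost with arrays centred on their medians (adjusted p = 0.113), with quantile normalization (0.0580) and without any lacZ or wnt3a+chordin array except lacZ replicate 3, with adjusted p of 0.0922 to 0.169 in these 5 fits. It was also lost without any kctd15 array (0.0554 to 0.0632) and without wnt3a+chordin+kctd15 replicate 2 (0.0520) or 3 (0.0608). Of the base chaperones psmd5, psmd9 and psmd10, only psmd9.S was called (0.57, adjusted p = 0.0374; lost without lacZ replicate 1, 0.141, or wnt3a+chordin replicate 2, 0.0688, or 3, 0.127), while psmd9.L showed 0.18, psmd5.L 0.02 and psmd10.L -0.28 (adjusted p = 0.112). The call of 1 of 4 base chaperone symbols (25%) is near the share of all probe sets called higher. In wnt3a+chordin+kctd15 minus kctd15 psmd9.S showed 0.29 (adjusted p = 0.270, and 0.0295 with the replicate block).

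The activators went apart. psme3 encodes the nuclear activator, which opens the barrel without ATP or ubiquitin. psme3.L was at 10.61, 10.94 and 11.18 with lacZ and 11.59, 12.02 and 11.75 with wnt3a+chordin, 0.88 higher without overlap (SE 0.19, limma adjusted p = 0.00368), or 1.84-fold. psme3.S was 0.79 higher (adjusted p = 0.000597). In wnt3a+chordin+kctd15 minus kctd15 both were higher, by 0.61 (adjusted p = 0.0238) and 0.56 (adjusted p = 0.00491). There the call of psme3.L was lost without kctd15 replicate 1 (adjusted p = 0.0952) or without wnt3a+chordin+kctd15 replicate 1 (0.0542) or 2 (0.0870), and without the 2 muscle-high arrays (0.0749).

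psme2, with psme1, forms the interferon-inducible activator that in mammals works with the immunoproteasome. psme2.L was at 7.09, 7.11 and 7.01 with lacZ, 7.72, 7.64 and 7.76 with kctd15, 5.79, 5.99 and 5.60 with wnt3a+chordin and 5.75, 6.43 and 5.87 with all 3 mRNAs. The arrays with wnt3a and chordin were all below the others, and the arrays labelled kctd15 alone were the highest of all. It was 2.42-fold lower with wnt3a+chordin than with lacZ (difference -1.27, SE 0.17, limma adjusted p = 0.000174). With wnt3a+chordin+kctd15 it was 3.22-fold lower than with kctd15 (-1.69, adjusted p = 3.1e-05). psme2.L was the member with the largest difference in either direction. Its values with lacZ and in all arrays with wnt3a and chordin were below the array medians of 7.17 to 7.28. The fit with dim probe sets left out did not hold it. psme1, its partner, showed 0.05 for the .L and -0.09 for the .S homeolog against lacZ (adjusted p = 0.940 and 0.837), with overlapping groups. The probe set of psme1.L was dim, with a mean of 5.19 where array medians were 7.17 to 7.28, and may not report a change. That of psme1.S had a mean of 7.53.

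psme4.L encodes the large nuclear activator known in mammals from sperm and DNA repair. It was at 10.83, 10.94 and 10.89 with lacZ, 11.18, 11.35 and 11.25 with kctd15, 10.82, 10.83 and 10.99 with wnt3a+chordin and 10.83, 10.70 and 10.99 with all 3 mRNAs. The kctd15 arrays were above all others, and the rest overlapped. Against lacZ its difference with wnt3a+chordin was -0.01 (limma adjusted p = 0.961). It was lower with wnt3a+chordin+kctd15 than with kctd15 (-0.42, adjusted p = 0.00862). Without the 2 arrays with the highest muscle mean, a choice made after seeing the data, that adjusted p was 0.0509.

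psmf1 encodes a protein first described as an inhibitor of the core. psmf1.L was at 8.04, 8.34 and 8.58 with lacZ and 8.94, 9.00 and 8.80 with wnt3a+chordin, 0.59 higher without overlap (limma adjusted p = 0.0179). That call was lost without lacZ replicate 1 (adjusted p = 0.0735) or wnt3a+chordin replicate 2 (0.0604). In the arrays labelled kctd15 it was at 7.77, 7.92 and 8.37 without and 9.01, 9.14 and 9.12 with wnt3a and chordin, 1.07 higher (SE 0.17, adjusted p = 0.000567), or 2.11-fold. Of the interacting proteins, psmc3ip.L, known for meiotic recombination, was 0.92 higher in that comparison (adjusted p = 0.0122) and showed 0.37 against lacZ (adjusted p = 0.272). psme3ip1.S, which binds the nuclear activator, was called in neither (0.24 and 0.17).

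Few members differed by the kctd15 label. Some marker means per array did. For neural crest they were 5.22 to 5.32 with kctd15 and 5.97 to 6.73 with lacZ. For epidermis they were 11.32 to 11.93 against 12.66 to 12.83. Ionocyte and multiciliated means were 9.98 to 10.42 against 10.67 to 10.80, and endoderm means 6.54 to 7.48 against 5.27 to 5.88. The other marker lists overlapped. The part of these markers in the proteasome values was not tested. In kctd15 minus lacZ 1 member was called higher and 1 lower by limma, where 6.99% of all probe sets were called in either direction, and the members' median was 0.08 against 0.04 over all probe sets. The called members were psme2.L and psmd1.L, and 8 of 63 (12.7%) had an unadjusted p under 0.05, as had 19.5% of all probe sets. With the replicate number as a block 4 were called, adding psmb8.L (0.35, adjusted p = 0.0390) and psme4.L (0.37, adjusted p = 0.0284). Without lacZ replicate 1, kctd15 replicate 1 or kctd15 replicate 2 the count was 0. psme2.L was 0.64 higher (SE 0.17, adjusted p = 0.04996), or 1.56-fold, and its call was lost without any 1 lacZ, kctd15 or wnt3a+chordin array (adjusted p from 0.0544 to 0.137) or without wnt3a+chordin+kctd15 replicate 3 (0.0585), though its groups did not overlap.

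psmd1, the largest base subunit, had the smallest adjusted p by that label, in 1 homeolog. psmd1.L was at 11.86, 11.38 and 11.46 with lacZ and at 10.64, 10.68 and 10.86 in the arrays labelled kctd15. With wnt3a+chordin it was at 11.79, 11.31 and 11.78, and at 11.12, 10.86 and 11.09 where kctd15 was added to the label. In both settings all arrays labelled kctd15 were below all arrays without that label. psmd1.L was 1.79-fold lower in kctd15 than in lacZ (difference -0.84, SE 0.17, limma adjusted p = 0.0140). The call was lost without lacZ replicate 1 (adjusted p = 0.0539) or without kctd15 replicate 1 (0.0587) or 2 (0.0547). In the setting with wnt3a and chordin, which shares no array with it, the difference was -0.61 (unadjusted p = 0.00469 and adjusted p = 0.236 by limma). psmd1.S was at 11.30, 11.35 and 11.52 with lacZ and 11.24, 11.24 and 11.52 with kctd15, so its groups overlapped (-0.06).

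**Figure D5:**
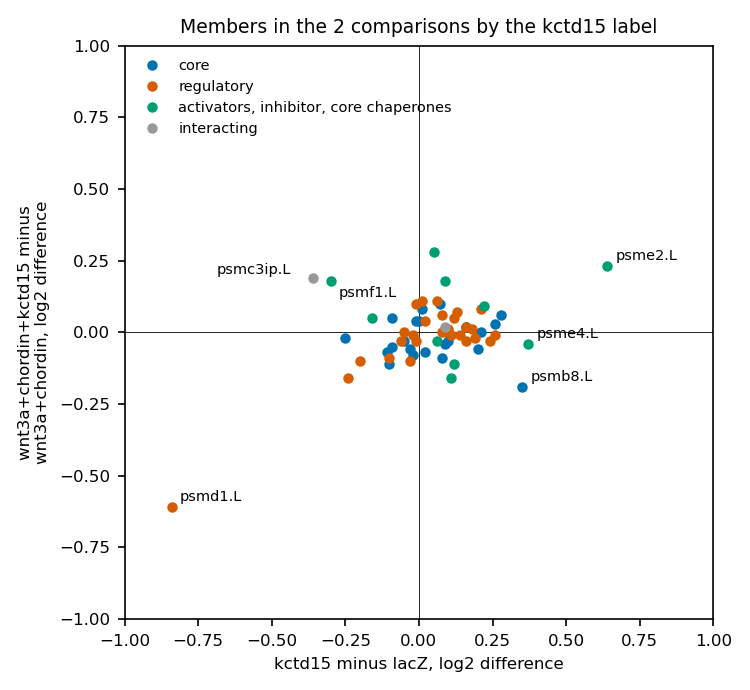
Log2 difference of each of the 63 members for kctd15 minus lacZ (x axis) and wnt3a+chordin+kctd15 minus wnt3a+chordin (y axis), which share no array, coloured by class. Nearly all points lie close to 0 on both axes, psmd1.L lies apart at -0.84 and -0.61, and psme2.L lies at 0.64 and 0.23.

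Where wnt3a and chordin were present, the kctd15 label gave no call among the members. There the neural crest means per array were 7.08 to 9.01 with that label and 9.83 to 10.99 without it. Ionocyte and multiciliated means were 5.23 to 7.59 against 4.96 to 5.16, and the other marker lists overlapped. In wnt3a+chordin+kctd15 minus wnt3a+chordin limma called 0 of 63, where 0.647% of all probe sets were called. The fit with the replicate block also called 0 of 63. In the fit without it 1 of 63 (1.59%, psmd1.L) had an unadjusted p under 0.05, against 6.5% of all probe sets. The members' median was 0.00, with -0.03 for the core and -0.01 for the regulatory members. The interaction, which tests whether the difference by that label changes with wnt3a and chordin, also gave 0 calls by limma, where 1.14% of all probe sets were called. With the block it gave 0 calls too. Both shares of called probe sets are from the fit without the block. The 1 member with an unadjusted p under 0.05, against 11.3% of all probe sets, was psme4.L, at -0.41 (SE 0.15, adjusted p = 0.290).

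A list of genes that work with the proteasome was made of its assembly factors, regulators, shuttles and ubiquitin enzymes. It also holds adrm1 and sem1, subunits of the regulatory particle whose symbols the rule does not match. With wnt3a+chordin against lacZ adrm1.L showed -0.36 (limma adjusted p = 0.101), adrm1.S -0.18 (0.493) and sem1.S 0.24 (0.0950). With the replicate block adrm1.L was called lower there (0.0438) and sem1.S higher (0.0334). In wnt3a+chordin+kctd15 minus kctd15 the block called adrm1.L lower too (-0.43, adjusted p = 0.0207), while sem1.S showed 0.06. Without the replicate block the listed genes gave calls in shares near those of all probe sets or below them. Of 32 symbols 7 were called higher and 3 lower with wnt3a+chordin against lacZ, with a median of 0.19. In wnt3a+chordin+kctd15 minus kctd15 the counts were 6 and 6, with a median of 0.06. These are 21.9% and 9.38% (24.2% and 17.1% over all probe sets) and 18.8% each way (23.6% and 18.5%). With the replicate block the counts against lacZ were 14 and 4, with no share over all probe sets from that fit to set beside them. pomp.S, the chaperone that helps to close the core barrel, was at 10.87, 10.96 and 10.86 with lacZ and 11.81, 11.64 and 11.58 with wnt3a+chordin. This was 0.78 higher without overlap (limma adjusted p = 0.00011). It was 0.69 higher with wnt3a+chordin+kctd15 than with kctd15 (adjusted p = 0.000232). nploc4.L, a cofactor of the unfolding enzyme vcp, was 0.75 higher against lacZ (adjusted p = 0.00519), whereas its homeolog nploc4.S was lower (-0.42, adjusted p = 0.0119).

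The list also holds transcription factors known in mammals to drive proteasome genes. nfe2l2.L, a factor of the oxidative stress response, was at 9.50, 9.68 and 9.60 with lacZ and 5.25, 4.28 and 5.87 with wnt3a+chordin, a difference of -4.46 (SE 0.46, limma adjusted p = 3.27e-05). nfe2l2.S was at 5.99, 6.22 and 6.17 with lacZ and at 8.10, 8.24 and 8.22 in the arrays labelled kctd15, 2.06 higher (adjusted p = 0.000953). In that comparison nfe2l2.L showed -0.20 (adjusted p = 0.891). With wnt3a+chordin nfe2l2.S was lower than with lacZ (-0.83, adjusted p = 0.0207), a call lost without any 1 of 4 arrays (0.0530 to 0.0699). nfe2l1.S, the factor that responds to loss of proteasome activity, showed -0.08 with wnt3a+chordin against lacZ (adjusted p = 0.699). It was lower with wnt3a+chordin+kctd15 than with kctd15 (-0.64, adjusted p = 0.00387). In kctd15 minus lacZ it showed 0.50 (adjusted p = 0.0604, and 0.00583 with the replicate block), and with that block its interaction was called (-0.56, adjusted p = 0.0436). Any relation between these factors and the proteasome members was not tested.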

How the data were processed

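Per the labels, RNA from TRIzol extraction was amplified, biotin-labelled with an Affymetrix 3' kit and hybridised. The authors deposited 1 log2 value per probe set and array, and the submitters' processing notes name Partek. Partek's version, background step, summarisation and normalization were not given in the sources used here. Precision is limited by the number of arrays.

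Of 32635 probe sets, 96 controls and 64 reporters were left out. Symbols came from the platform annotation, updated through gene identifiers to the Xenopus laevis assembly 10.1, where all 63 members were found. Different probe sets of a symbol were represented by that with the highest mean, and 8 members had several. A further 3 probe sets that match both homeologs of a gene (psmd2, psmc6, psma4) belong to no single symbol. psmd11 was not analysed here. The subunits adrm1 and sem1 were read with the partner list and are in no count of base, lid or regulatory members.

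Groups came from the sample titles. The model (limma 3.58.1 under R 4.3.3: lmFit, contrasts.fit, eBayes) had 1 mean for each group over all 12 arrays, and tests were two-sided, with Benjamini-Hochberg adjustment over 32475 probe sets in each of 5 comparisons. The fit was run on simulated data with independent noise in each array, which cannot test the effect of deviations that arrays share. No result here rests on that run. Same-numbered arrays deviated together from their group means (correlations of 0.18 to 0.71, 18 pairs). The fit with the number as a block is therefore given where it changes the call of a named gene or moves a count by over 1.5 times. All shares over all probe sets are from fits without the block. Named genes were chosen by a rule: up to 8 per direction and comparison without overlap, the largest of each class, all inducible, psme, psmf and psmg members, the 5 smallest, the 3 widest homeolog pairs, up to 4 partners per comparison and the injected genes. Other members are named to account for the rest. The members and lists were chosen with earlier results of these data known. Alternatives covered the block, normalization, array weights, the variance prior, dim probe sets, the probe set per symbol, the arrays fitted and each array or replicate number left out.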

Additional observations from a re-analysis of the deposited data

How the results depend on the processing

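Over the 63 members and 32 partners, a value called in either fit kept its direction in all 25 alternatives. Several of these cannot change a difference, so its direction was fixed there. Among them are the block, the variance prior and leaving out an array of a group not compared. Some uncalled values changed sign in some alternatives, and not only those near 0. psmb9.S in wnt3a+chordin minus lacZ was -0.50 and ran from -0.87 to 0.07. Applying the alternatives to members outside the naming rule and to partners was decided after seeing the data. With the replicate number as a block 41 members were called in wnt3a+chordin minus lacZ (37 without) and 42 in wnt3a+chordin+kctd15 minus kctd15 (33 without), 4 in kctd15 minus lacZ (2 without), and 15 regulatory members were called higher in wnt3a+chordin+kctd15 minus kctd15 (8 without). The members whose calls the block changed are given with their adjusted p beside their results, and it changed no other member's call. Partners called in kctd15 minus lacZ were 7 with the block (1 without). No share over all probe sets is given for the fit with the block, so these counts have none beside them. The same regulatory count was 3 with only the arrays compared and 4 without the 2 arrays with the highest muscle mean, an alternative chosen after seeing the data, as were all for counts per class. The regulatory median in wnt3a+chordin minus lacZ (0.21) was 0.26 with arrays centred on their medians, 0.30 with array weights, 0.34 with dim probe sets left out and 0.27 without the muscle-high arrays. The core median of the interaction (-0.07) was -0.14 with centred arrays, which also moved the median of all probe sets from -0.04 to -0.11, and the core median in wnt3a+chordin+kctd15 minus kctd15 (0.50) was 0.53 with the lowest-mean probe set of each symbol. The cause was not tested.

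Leaving out 1 array or all arrays of 1 number gave ranges. Members called ran from 15 to 36 in wnt3a+chordin minus lacZ, 13 to 34 in wnt3a+chordin+kctd15 minus kctd15 and 0 to 2 in kctd15 minus lacZ. Core members called higher ran from 10 to 18 and 8 to 17 in the first pair, and regulatory members from 3 to 12 and 2 to 9. Leaving out all arrays of 1 number also leaves 2 arrays per group and the lowest counts came from number 2. Medians ran from 0.18 to 0.32 (regulatory) in wnt3a+chordin minus lacZ, 0.46 to 0.54 (core) and 0.20 to 0.32 (regulatory) in wnt3a+chordin+kctd15 minus kctd15, 0.00 to 0.10 (core) in kctd15 minus lacZ and -0.12 to 0.01 (core) in the interaction.

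Members called higher in wnt3a+chordin minus lacZ were 35 as deposited and with centred arrays, and 33 with quantile normalization.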

Other observations

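Probe sets outside the 63 symbols gave values for further members. Those that match both homeologs of a gene were higher with wnt3a+chordin than with lacZ: psmd2, a scaffold of the base, by 0.43 (limma adjusted p = 0.0129), psmc6 by 0.42 (adjusted p = 0.0369) and psma4 by 0.58 (adjusted p = 0.000635). In wnt3a+chordin+kctd15 minus kctd15 only psma4 was called (0.43, adjusted p = 0.00372), with psmd2 at 0.26 (adjusted p = 0.0978) and psmc6 at 0.37 (adjusted p = 0.0610).

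Among the 8 symbols with several probe sets, all probe sets agreed in the call of wnt3a+chordin minus lacZ for 6. Both of psmb2.L (0.48 to 0.69), psmb5.L (0.65 to 0.92) and psmd8.L (0.97 to 1.45) were called, and none of psmd3.S (0.04 to 0.16), psmd4.S or psmd5.L. psmc1.L had 4 of 5 called (0.05 to 0.63) and psmc3.L 1 of 2 (0.19 to 0.34).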
